A study of Mus musculus with 12 samples.

Results

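Messenger RNA of 8 genes of cholesterol synthesis was followed in epididymal white adipose tissue (eWAT) of obese mice: Srebf2 and Insig1, which control the pathway, and Hmgcs1, Idi1, Fdft1, Sqle, Lss and Cyp51, which encode enzymes of it. The genes were given as a list of symbols, and all 8 were found among the 49315 genes of the count table by their symbol. None of the 8 is a receptor for LDL, so uptake of LDL was not analysed here. RNA was sequenced from 12 mice on a high-fat diet (HFD) of 60% fat lasting 12 weeks, with 1 library per mouse and 3 mice in each of 4 groups. Flox mice, miR-181a2b2flox/flox, carried the floxed locus of the microRNAs Mir181a-2 and Mir181b-2 and were the controls, and KO mice, miR-181a2b2-/-, lacked it in every tissue rather than in a chosen cell type. Mice of each genotype received weekly intraperitoneal injections of either vehicle or methotrexate (MTX), an antifolate drug used against inflammation, at 1 mg/kg. Libraries are named by group and by the replicate number of their labels, as in flox MTX replicate 2. Per the methods the mice were male littermates of like age, but no age is given for these 12 animals.

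Cells build cholesterol from acetyl-CoA through mevalonate, isoprenoid units, squalene and a series of sterols. SREBP2, the product of Srebf2, switches the enzyme genes on when membranes of the endoplasmic reticulum hold little cholesterol, after SCAP has carried it to the Golgi for cleavage, and the INSIG proteins hold the SCAP complex back when sterols are plentiful. Adipocytes store much of the free cholesterol of the body in their lipid droplets, while their own synthesis is low beside that of the liver.

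Fdft1 and Idi1 were lower in KO than in flox eWAT under vehicle, by 2.39-fold and 2.18-fold, and the other 6 genes passed no test in that comparison. Under MTX, and between MTX and vehicle in either genotype, none of the 8 passed. Of all genes tested, 31.7% passed between KO and flox mice under vehicle and 24.2% for MTX in flox mice. Between the genotypes under MTX, and for MTX in KO mice, 0% of all genes passed. Mice of 1 group differed widely: Hmgcs1, Insig1, Lss, Cyp51 and Idi1 went up and down together from mouse to mouse, above all in the flox MTX group, and Srebf2 did not go with them.

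Depth ranged from 19495310 to 23976469 counted reads per library. The 12 adipocyte markers summed to between 18640 and 77310 CPM (counts scaled to a common library total) and all were above 3 counts in every library. The 3 flox vehicle libraries also held RNA of male reproductive tissue: 14 epididymis markers summed to 1467 to 12380 CPM there, against 4.86 to 482 in flox MTX, 5.55 to 11.6 in KO vehicle and 1.18 to 12.2 in KO MTX libraries, where 2 of the 14 were at 0 throughout. Testis germ cell markers (10 genes) summed to 211 to 544 CPM in flox vehicle libraries and to at most 12.9 elsewhere, and 6 markers of steroid-producing cells to 62.3 to 220 against at most 20.2. In flox vehicle replicates 1 and 3, Cyp17a1 alone made up 51.2 of the 62.3 CPM and 130 of the 149 CPM of the steroid sum. Cyp11a1 was at 0.868 and 0.905 CPM there, against 27.7 in replicate 4, which also held 22.3 CPM of Hsd3b1 and 120 of Insl3. The 12 macrophage markers summed to 386 to 708 CPM in flox vehicle, 3113 to 6154 in KO vehicle, 485 to 3000 in flox MTX and 3976 to 6402 in KO MTX libraries. In bulk tissue, fewer cells of a type and less RNA per cell cannot be told apart. Values below are CPM scaled with TMM factors, which correct library sizes for their composition, and a gene counted as called when edgeR's quasi-likelihood test over 18702 genes gave it a fold change of 1.5 or more and a p below 0.1 after Benjamini-Hochberg adjustment.

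SREBP acts through short elements upstream of its target genes, so the upstream sequences of 4 genes are shown: Hmgcs1, Cyp51 and Idi1, which varied together, and Srebf2, which did not. Each runs 5′ to 3′ over the 250 bases before the start of the gene in RefSeq (GRCm38.p6). The gene coordinates given further below are from GENCODE M21 and differ from these starts. By those coordinates the sequences of Srebf2, Idi1 and Cyp51 reach into the gene, and distances to motifs are counted to the RefSeq start. Capitals mark matches on either strand to TCACNNCA, a loose form of the sterol regulatory element that SREBP binds, and to CCAAT, the box of the cofactor NF-Y.
Srebf2, chr15:82147019-82147268, plus strand: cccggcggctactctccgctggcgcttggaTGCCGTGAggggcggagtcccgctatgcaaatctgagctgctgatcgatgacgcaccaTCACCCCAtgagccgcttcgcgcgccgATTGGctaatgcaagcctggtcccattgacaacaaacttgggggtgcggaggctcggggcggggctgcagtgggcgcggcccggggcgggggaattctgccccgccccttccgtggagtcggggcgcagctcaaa
Hmgcs1, chr13:119690101-119690350, plus strand: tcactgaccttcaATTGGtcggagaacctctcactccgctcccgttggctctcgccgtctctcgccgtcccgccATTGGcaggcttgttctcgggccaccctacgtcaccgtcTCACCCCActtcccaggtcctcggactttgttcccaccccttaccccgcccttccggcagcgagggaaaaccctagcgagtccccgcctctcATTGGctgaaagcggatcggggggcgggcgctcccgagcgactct
Idi1, chr13:8885356-8885605, plus strand: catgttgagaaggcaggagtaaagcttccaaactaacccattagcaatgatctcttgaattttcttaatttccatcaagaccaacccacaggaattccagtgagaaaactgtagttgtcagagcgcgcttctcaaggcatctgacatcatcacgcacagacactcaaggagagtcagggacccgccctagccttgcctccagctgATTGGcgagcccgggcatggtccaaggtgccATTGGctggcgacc
Cyp51, chr5:4104698-4104947, minus strand: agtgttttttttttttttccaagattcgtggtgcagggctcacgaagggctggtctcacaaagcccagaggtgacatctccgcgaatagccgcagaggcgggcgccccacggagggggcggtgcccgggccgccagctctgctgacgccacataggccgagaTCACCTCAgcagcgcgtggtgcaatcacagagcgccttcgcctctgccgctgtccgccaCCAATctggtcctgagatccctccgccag

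A promoter was found in the RefSeq table for 6 of the 8 genes, the exceptions being Sqle and Fdft1. TCACNNCA was in 3 of the 6, against 11.4% of 32851 mouse promoters of the same length. Srebf2 held it as TGCCGTGA (the other strand), 220 bases before the start, and as TCACCCCA, 162 bases before it. Hmgcs1 held TCACCCCA at 137 bases and Cyp51 held TCACCTCA at 88 bases. Idi1, Lss and Insig1, which varied together with Hmgcs1 and Cyp51, held none, and the sequences of Lss and Insig1 are not shown. CCAAT was in all 6, with 3 copies in Hmgcs1 and 2 in Idi1, against 33.9% of all promoters. The E-box CACGTG was in Insig1 alone of the 6, against 6.02%. Of 17 further pathway genes in the table, 6 held TCACNNCA, 13 CCAAT and 4 CACGTG. A match describes letters, not binding, and all 3 motifs were searched on both strands.

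Per length of transcript, Insig1 and Hmgcs1 stood far above the others. Insig1 had a mean of 98.8 ± 58.6 FPKM (SD, n = 12) and Hmgcs1 of 80.0 ± 39.1, and these neighbours did not differ beyond their spread. The lowest Hmgcs1 library, at 33.0 FPKM, was still above the highest Cyp51 library, at 26.9. Cyp51 followed at 15.5 ± 5.23 FPKM, Fdft1 at 10.4 ± 5.23 and Srebf2 at 9.48 ± 2.25, and their ranges overlapped. The order of the last pair differed by group: Fdft1 had a mean of 16.8 FPKM and Srebf2 of 9.93 in flox vehicle mice, against 7.04 and 8.15 in KO vehicle, 11.8 and 8.76 in flox MTX and 5.86 and 11.1 in KO MTX mice. Lss (5.01 ± 2.11), Sqle (4.03 ± 1.02) and Idi1 (2.51 ± 1.33) came last, each within the spread of the next. Lengths are those of the joined exons in GENCODE M21, so a gene whose tissue uses short transcripts is set too low. From the lowest to the highest library the level ranged 7.36-fold for Insig1, 5.49-fold for Idi1, 4.60-fold for Fdft1, 4.58-fold for Hmgcs1 and 4.10-fold for Lss, but 2.00-fold for Srebf2.

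Srebf2 (ENSMUSG00000022463, chromosome 15 of GRCm38, 82147181 to 82205379) encodes the master regulator. Its level was 67.5, 92.4 and 54.1 CPM in flox vehicle replicates 1, 3 and 4 and 47.9, 54.3 and 73.3 in KO vehicle replicates 1 to 3. Under MTX it was 46.2, 85.7 and 56.8 CPM in flox replicates 1, 2 and 4 and 76.3, 89.1 and 73.7 in KO replicates 2 to 4. The 3 KO MTX mice lay closest together and just above the highest KO vehicle mouse, while every other pair of groups overlapped. Insig1 (ENSMUSG00000045294, chromosome 5, 28071363 to 28078662) encodes the brake on SCAP and is itself a target of SREBP. Its level was 142, 256 and 459 CPM in flox vehicle mice and 261, 259 and 232 in KO vehicle mice, which fell inside the flox range. It was 464, 102 and 755 CPM in flox MTX replicates 1, 2 and 4 and 319, 130 and 289 in KO MTX mice. The lowest and the highest of the 12 libraries were thus both in the flox MTX group.

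Hmgcs1 (ENSMUSG00000093930, chromosome 13, 119690379 to 119708260) encodes the cytosolic HMG-CoA synthase that makes the substrate of the rate-limiting step. It stood at 271, 274 and 603 CPM in flox vehicle and at 344, 245 and 270 in KO vehicle mice. Under MTX it stood at 633, 152 and 695 CPM in flox mice and at 346, 192 and 388 in KO mice. The groups overlapped in all comparisons, again with both extremes in flox MTX mice. Idi1 (ENSMUSG00000058258, chromosome 13, 8885501 to 8892451) encodes the isomerase that makes dimethylallyl diphosphate, the starter of isoprenoid chains. Its level was 7.77, 7.36 and 11.9 CPM in flox vehicle mice and 5.09, 3.60 and 3.70 in KO vehicle mice, with no overlap. It was 12.8, 6.41 and 19.8 CPM in flox MTX and 10.3, 5.63 and 11.4 in KO MTX mice. These KO MTX values all lay above the KO vehicle values and within reach of both flox groups. Idi1 was the sparsest of the 8, with as few as 79 counts in a library.

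Fdft1 (ENSMUSG00000021273, chromosome 14, 63145150 to 63179578) encodes squalene synthase, the first enzyme committed to sterols. It stood at 74.5, 82.6 and 56.2 CPM in flox vehicle mice and at 31.3, 27.7 and 30.3 in KO vehicle mice. It stood at 34.3, 41.4 and 74.0 CPM in flox MTX mice and at 31.8, 17.9 and 24.6 in KO MTX mice. All 6 KO mice were below all 6 flox mice, the nearest being KO MTX replicate 2 and flox MTX replicate 1. Sqle (ENSMUSG00000022351, chromosome 15, 59315077 to 59331192) encodes squalene epoxidase, another control point of the pathway. Its level was 19.8, 33.8 and 24.0 CPM in flox vehicle, 16.5, 16.9 and 29.2 in KO vehicle, 25.6, 14.4 and 25.6 in flox MTX and 22.6, 18.5 and 21.1 in KO MTX mice. Every pair of groups overlapped.

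Lss (ENSMUSG00000033105, chromosome 10, 76531588 to 76557138) encodes lanosterol synthase, which closes the sterol rings. It stood at 31.4, 39.9 and 60.2 CPM in flox vehicle and 52.7, 44.2 and 50.7 in KO vehicle mice, and at 99.9, 24.4 and 86.3 in flox MTX and 60.7, 30.4 and 68.1 in KO MTX mice. Both MTX groups held low and high mice, so no pair of groups was apart. Cyp51 (ENSMUSG00000001467, chromosome 5, 4081145 to 4104746) encodes the demethylase that acts on lanosterol. It stood at 55.9, 86.7 and 81.0 CPM in flox vehicle and 58.0, 47.0 and 69.4 in KO vehicle mice, and at 90.0, 38.1 and 119 in flox MTX and 63.0, 42.2 and 68.9 in KO MTX mice. The same replicate of flox MTX, number 2, was lowest and number 4 highest. In the plot of levels by library, the SD of Hmgcs1 was 297 CPM in flox MTX mice against 51.5 in KO vehicle and 103 in KO MTX mice, whereas that of Sqle was 6.50 in flox MTX and 7.24 in KO vehicle mice.

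**Figure D1:**
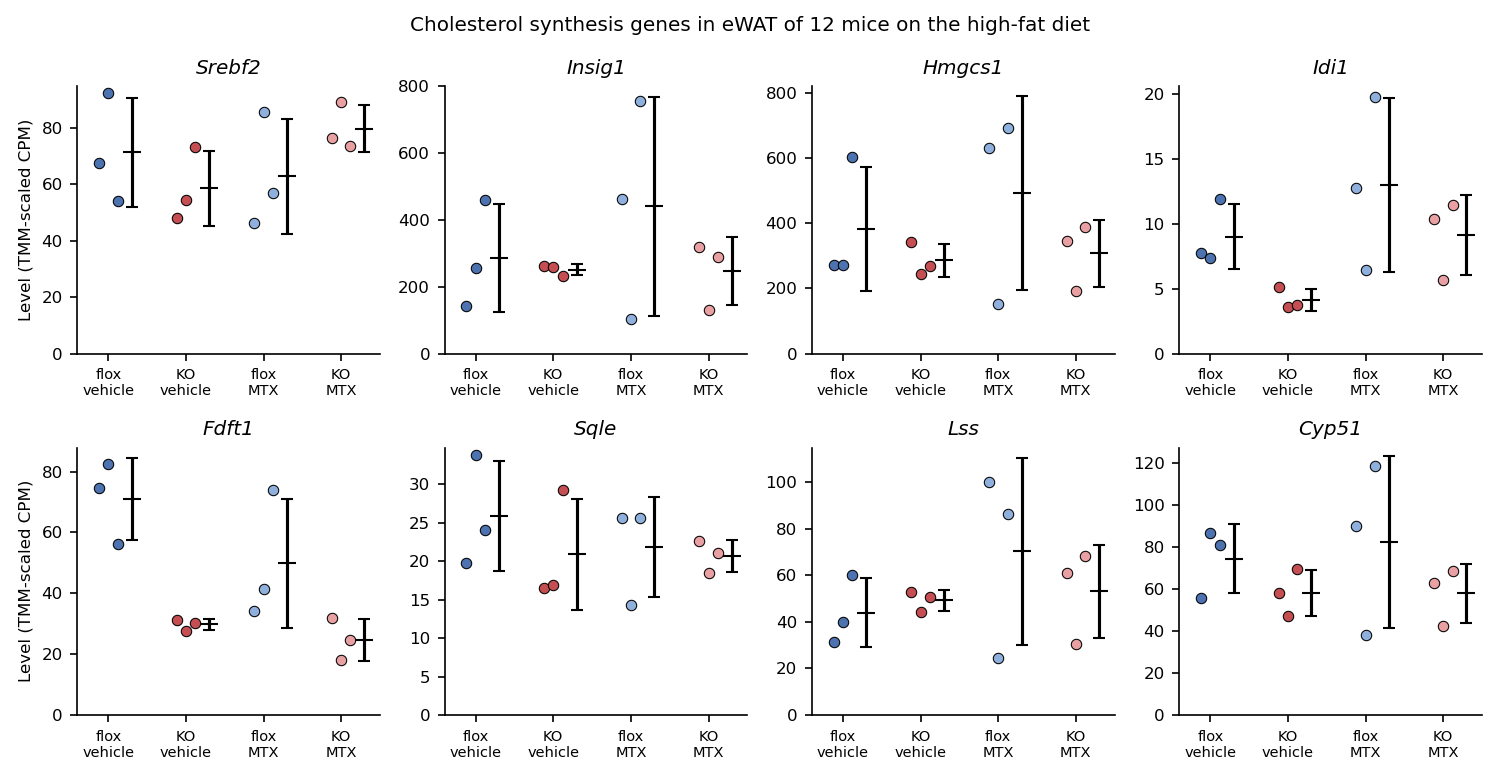
Level of each gene in TMM-scaled CPM (linear axis from 0) in the 4 groups; points are single mice in the order of their replicate numbers, and the bar beside them is the mean with the SD of 3 mice. Fdft1 lay between 17.9 and 31.8 CPM in the 6 KO mice and between 34.3 and 82.6 in the 6 flox mice, while the other genes overlapped between flox and KO in at least 1 of the treatments.

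The first comparison asks how loss of the miRNAs bears on the pathway in obese fat under vehicle. Of the 8 genes, 2 were called (25.0%), both lower in KO mice, whereas 31.7% of all genes tested were called, 17.8% lower and 13.9% higher. The share of called genes among the 8 was thus near the background. Fdft1 had a log2 fold change of -1.26 (SE 0.29, edgeR adjusted p = 0.00822) and Idi1 of -1.12 (SE 0.40, adjusted p = 0.0583), each lower in 3 of 3 KO mice than in any flox mouse. How many of all genes lay apart between the groups was not counted, here or in the other comparisons. Cyp51 differed by -0.36 (SE 0.35), Hmgcs1 by -0.42 (SE 0.51), Sqle by -0.31 (SE 0.29), Srebf2 by -0.29 (SE 0.26), Insig1 by -0.19 (SE 0.61) and Lss by 0.17 (SE 0.45), all log2 and none of them called by edgeR. The median over the 8 was -0.33, against -0.06 over all genes. An unadjusted p below 0.05 was reached by 2 of the 8 and by 41% of all genes, and DESeq2 also called 2 of the 8, against 33.5% of all genes. With 3 mice against 3, the exact two-sided permutation test cannot go below 0.1, the value it gave for Fdft1 and Idi1.

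Fdft1 remained called with any single library left out, with log2 fold changes from -1.39 to -1.13. Flox vehicle replicate 4, the library of its group with the least epididymis RNA, held 56.2 CPM of Fdft1, above all KO mice. It still held 1467 CPM of epididymis and 211 of testis germ cell markers. Its markers of steroid-producing cells, at 220 CPM, were the highest of the 12 libraries. The 3 flox vehicle values of Fdft1 followed the order of the epididymis markers (replicate 3, then 1, then 4). So did those of Srebf2 and of 28.1% of all genes tested, but not those of the other 6 genes. The part of this reproductive tissue RNA in the result was not tested. Across the 12 libraries Fdft1 had a Pearson's r of 0.72 with the summed epididymis markers, and of -0.29 for deviations from group means. It went against the macrophage markers (r = -0.94, and -0.75 for deviations) and the fibroblast markers (r = -0.90, and -0.68). All libraries of a group share genotype and treatment, and the part of macrophages and fibroblasts in the result was not tested. Exons of Fdft1 overlap those of Ctsb, a lysosomal protease gene on the opposite strand, over 774 bases, and the strand setting of the counting is not given in the sources used here. Ctsb stood at 1238 to 2237 CPM in flox vehicle and at 4391 to 5991 in KO vehicle mice, the opposite direction to Fdft1, and shared reads were not tested. Exons of Hmgcs1, Idi1, Lss and Cyp51 also overlap a gene on the opposite strand, over 557, 323, 381 and 166 bases. The call of Idi1 was lost without flox vehicle replicate 4 (-0.86 on the log2 scale, adjusted p = 0.160), KO vehicle replicate 2 (-1.02, adjusted p = 0.153) or KO vehicle replicate 3 (-1.04, adjusted p = 0.165) in edgeR.

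The same comparison under MTX gave no call among the 8 genes, and no gene of the 18702 tested was called by edgeR (0%). Where every library had to hold 10 counts or more, 1491 of 14132 were, Fdft1 among them (adjusted p = 0.0839). An unadjusted p below 0.05 was reached by Fdft1 alone of the 8 and by 24.5% of all genes, and DESeq2 called Fdft1 alone of the 8 and 16.8% of all genes. Fdft1 had a log2 fold change of -1.01 (SE 0.29, edgeR adjusted p = 0.109), with the 3 KO mice below the 3 flox mice. Insig1 had -0.84 (SE 0.61), Hmgcs1 -0.68 (SE 0.51), Cyp51 -0.50 (SE 0.35), Idi1 -0.50 (SE 0.39), Lss -0.40 (SE 0.45) and Sqle -0.08 (SE 0.29), with the groups overlapping for each. Srebf2 had 0.34 (SE 0.26), the only positive value. The median was -0.50 (-0.84 to -0.16 with single libraries left out), against -0.05 over all genes.

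Flox MTX replicate 2 had the lowest level of all 12 libraries for 5 of the 8 genes (Insig1, Hmgcs1, Sqle, Lss and Cyp51), whereas flox MTX replicate 4 had the highest for 4 (Insig1, Hmgcs1, Idi1 and Cyp51). Without replicate 2, edgeR called 20.8% of all genes (4064 of 19532, of which 1985 were lower). It also called 4 of the 8, all lower in KO mice: Fdft1 (log2 fold change -1.13, adjusted p = 0.0415), Cyp51 (-0.85, 0.0525), Hmgcs1 (-1.11, 0.0740) and Insig1 (-1.31, 0.0825), the second value being the adjusted p. Replicate 2 held 39120 CPM of adipocyte markers and 3000 of macrophage markers, replicate 1 held 65620 and 1899, and replicate 4 held 77310 and 485. Within the flox MTX group the genes thus went with the adipocyte and against the macrophage markers for the lowest mouse, and the part of cell composition in the result was not tested. Without flox vehicle replicate 3, a library of neither group, Fdft1 was called (adjusted p = 0.0993 in edgeR), as were 1028 of 19024 genes.

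**Figure D2:**
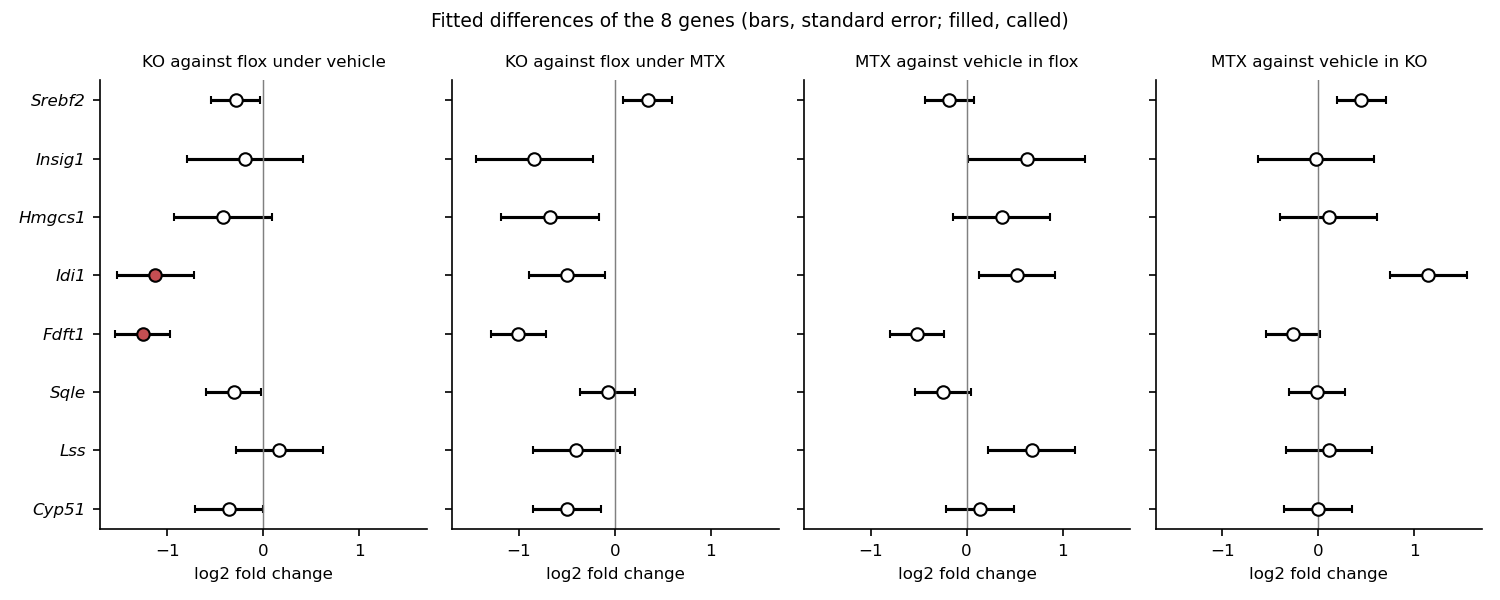
Fitted log2 fold changes of the 8 genes (horizontal axis) in the 4 comparisons of 2 groups, with bars of 1 standard error; filled points were called. Only Fdft1 (-1.26) and Idi1 (-1.12) under vehicle are filled, and the bars of Insig1 and Hmgcs1 are the longest in each panel.

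MTX against vehicle was compared within each genotype to ask what the drug changed. In flox mice none of the 8 was called, while 24.2% of all genes were, 16.1% lower (3015) and 8.09% higher (1513). With library size as the only scaling, the split was 3607 lower and 766 higher, the median of all genes moved from 0.05 to -0.15 on the log2 scale, and Fdft1 was called lower (-0.75, adjusted p = 0.0677 in edgeR). No member reached an unadjusted p below 0.05 in edgeR, against 34.2% of all genes, and DESeq2 called none, against 25.8%. The log2 fold changes ran from -0.51 (SE 0.28) for Fdft1 to 0.68 (SE 0.45) for Lss, with 5 of the 8 positive and a median of 0.25, against 0.05 over all genes. That median ran from -0.05 to 0.65 with single libraries left out. Without flox MTX replicate 2, Lss was called higher (log2 fold change 1.10, adjusted p = 0.0482), and without flox MTX replicate 4, Fdft1 was called lower (-0.90, adjusted p = 0.0289 in edgeR). These comparisons share the flox vehicle libraries and their epididymis RNA with the first one.

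In KO mice no gene was called by edgeR (0%), with 7.97% of all genes at an unadjusted p below 0.05, and DESeq2 called none of the 8 and 1.51% of all genes. Idi1 alone of the 8 had an unadjusted p below 0.05, and its adjusted p in edgeR was 0.469. Its log2 fold change was 1.15 (SE 0.40), with all 3 KO MTX mice above all 3 KO vehicle mice. Srebf2 had 0.45 (SE 0.26), also without overlap, and the other 6 lay between -0.26 and 0.11. The change under MTX was then compared between the genotypes (interaction). None of the 8 was called, against 0.989% of all genes (185 of 18702). That count was 1371 without flox vehicle replicate 4, 5 to 7 without any 1 KO vehicle library, 9 without KO MTX replicate 4, 26 to 275 without any other single library and 0 with the replicate number as a block. None of the 8 had an unadjusted p below 0.05, against 15% of all genes. DESeq2 called none of the 8 and 6.68% of all genes. The interaction values ran from -0.65 (SE 0.86) for Insig1 to 0.63 (SE 0.36) for Srebf2 on the log2 scale, and their standard errors leave room for sizeable differences in either direction.

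The list of the other steps and regulators holds 20 genes, all of which passed the filter on low counts. Under vehicle, 4 of the 20 genes were called lower in KO mice and none higher, again below the 31.7% of all genes. Acat2, the cytosolic thiolase of the first step, stood at 159, 219 and 104 CPM in flox and 65.8, 55.6 and 51.4 in KO mice (log2 fold change -1.48, SE 0.42, adjusted p = 0.0221). Tm7sf2, a sterol reductase, stood at 24.9, 51.8 and 20.3 CPM in flox and 10.6, 9.57 and 12.2 in KO mice (-1.58, SE 0.42, adjusted p = 0.0158). Scap, the escort of SREBP, stood at 78.8, 108 and 53.8 CPM in flox and 44.7, 44.4 and 41.3 in KO mice (-0.89, SE 0.20, adjusted p = 0.00786). All 3 followed the order of the epididymis markers in the flox vehicle libraries, and no other gene of the list did. Srebf1, the gene of the SREBP that drives mainly fatty acid synthesis, stood at 476, 354 and 348 CPM in flox and 165, 137 and 113 in KO mice (-1.50, SE 0.35, adjusted p = 0.00909), and did not follow it. None of the 4 overlapped between the groups. In all, 9 of the 20 did not overlap there, and this was not counted over all genes.

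Ebp, a sterol isomerase, and Dhcr7, the last reductase before cholesterol, were not called under vehicle. Dhcr7 stood at 11.3, 21.4 and 36.4 CPM in flox and 47.1, 35.3 and 53.8 in KO mice, overlapping slightly (log2 fold change 0.98, SE 0.49, adjusted p = 0.158), and was called higher without flox vehicle replicate 4 (1.48, adjusted p = 0.0571 in edgeR) and without flox MTX replicate 1 or 2, libraries of neither group (adjusted p = 0.0744 and 0.0818). Ebp stood at 38.8, 37.1 and 41.2 CPM in flox and 53.0, 43.3 and 58.6 in KO mice, without overlap (0.40, SE 0.23, adjusted p = 0.215). The site-2 protease gene Mbtps2 passed the adjusted p (0.0325) but not the fold limit (0.46, SE 0.14), and was singled out after its values were seen. Under MTX none of the 20 was called between the genotypes, and edgeR called 0% of all genes. An unadjusted p below 0.05 was reached by 4 of the 20 and by 24.5% of all genes. DESeq2 called Srebf1 and Insig2, both lower, and 16.8% of all genes. Without flox MTX replicate 2, edgeR called 8 of the 20 there, all lower, against 20.8% of all genes (2079 higher and 1985 lower).

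MTX in flox mice gave 3 calls among the 20 (15.0%, against 24.2% of all genes): Tm7sf2 (log2 fold change -1.14, SE 0.41, adjusted p = 0.0756) and Scap (-0.72, SE 0.20, adjusted p = 0.0307) were lower and Ebp (0.61, SE 0.23, adjusted p = 0.0901) was higher. Tm7sf2 stood at 17.5, 6.41 and 20.26 CPM in flox MTX mice, just below the lowest flox vehicle mouse at 20.32. Scap stood at 51.7, 46.6 and 48.5 CPM, below all flox vehicle mice, and Ebp stood at 83.7, 39.1 and 55.8 CPM, overlapping them. Without flox vehicle replicate 3, the library richest in epididymis RNA, none of the 20 was called, with Scap at -0.44 (adjusted p = 0.117) and Tm7sf2 at -0.62 (adjusted p = 0.349) in edgeR. Tm7sf2 was also lost without flox MTX replicate 2 (-0.76, adjusted p = 0.132), and Ebp without any 1 of 8 libraries. Without flox vehicle replicate 4 there were 6 calls (3 higher and 3 lower), against 30.9% of all genes (5995 of 19402). Without flox MTX replicate 2 there were 8 (7 higher, and Scap lower), with 4685 of all 19532 genes called. DESeq2 made 4 calls, with Ebp and Dhcr7 higher and Tm7sf2 and Scap lower, against 25.8% of all genes. In KO mice MTX gave no call among the 20 in edgeR, none with an unadjusted p below 0.05 and none in DESeq2. The interaction gave no call in edgeR, 1 gene with an unadjusted p below 0.05 and 1 call in DESeq2, in each case Scap (log2 0.91, SE 0.28, edgeR adjusted p = 0.179). In the same order, the shares of all genes were 0%, 7.97% and 1.51% in KO mice and 0.989%, 15% and 6.68% for the interaction.

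**Figure D3:**
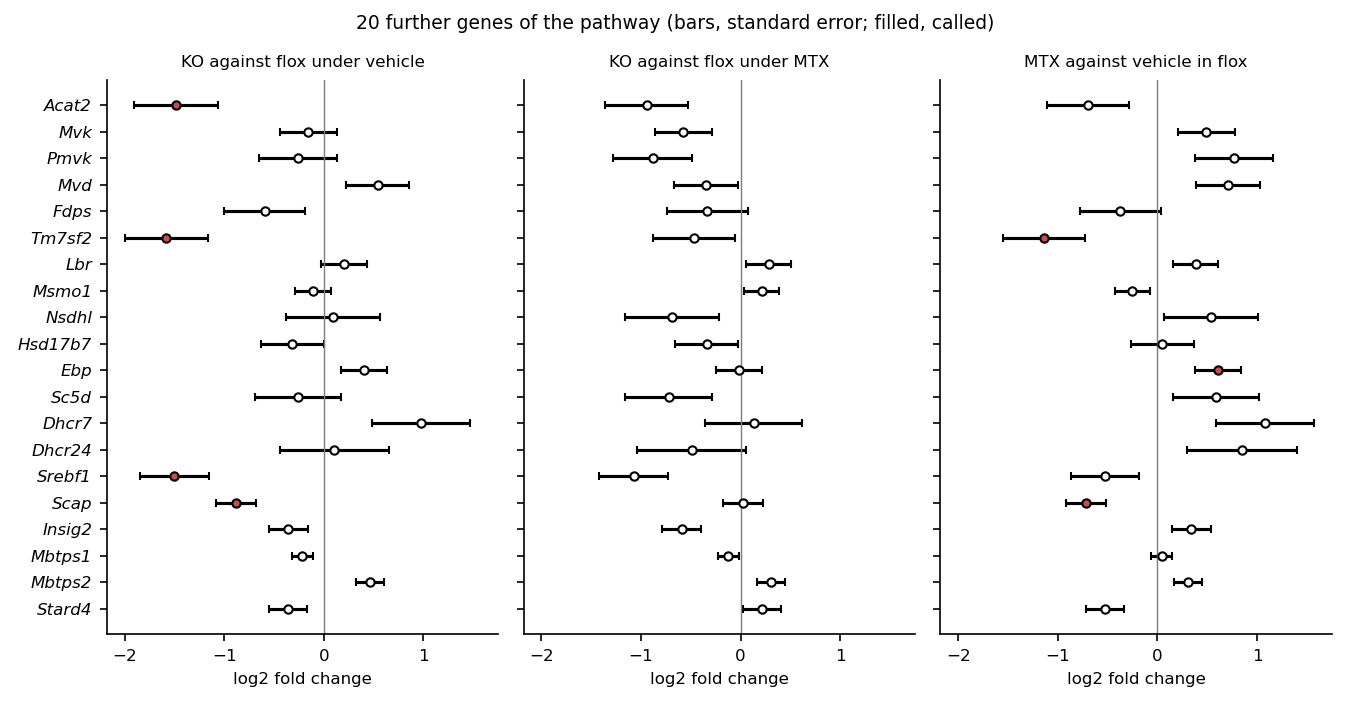
Fitted log2 fold changes (horizontal axis) of 20 further genes of cholesterol synthesis and its control, ordered by step with the regulators last, in 3 comparisons; bars are 1 standard error and filled points were called. Acat2, Tm7sf2, Srebf1 and Scap are filled and negative under vehicle, no gene is filled under MTX, and Tm7sf2, Scap and Ebp are filled for MTX in flox mice.

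From mouse to mouse most of the 8 genes moved together. All 21 pairs that leave out Srebf2 were positively correlated over the 12 libraries in log2 CPM, with Pearson's r from 0.020 to 0.94 and a median of 0.61, and from 0.22 to 0.97 with a median of 0.82 for deviations from the group means. The tightest were Hmgcs1, Idi1, Lss, Cyp51 and Insig1, a set picked after its values were seen, at 0.61 to 0.94, and 0.84 to 0.97 within groups. Hmgcs1 with Insig1 reached 0.94 and Hmgcs1 with Lss 0.91. Fdft1 was looser, with a median r of 0.31 to the other 7. Srebf2 went the other way, with a median r of -0.36 (-0.65 within groups) to the other 7 and a lowest value of -0.67, to Hmgcs1. These values describe 12 libraries in 4 groups that share genotype, treatment and cell makeup. Over the same libraries the adipocyte sum had an r of 0.72 with Hmgcs1, 0.63 with Idi1, 0.60 with Insig1, 0.56 with Lss, 0.53 with Cyp51, 0.51 with Fdft1, 0.03 with Sqle and -0.72 with Srebf2. For deviations from group means, Hmgcs1, Idi1, Lss, Cyp51 and Insig1 had an r of 0.44 to 0.82 with the adipocyte sum, 0.61 to 0.81 with the endothelium sum and -0.67 to -0.47 with the macrophage sum, and Srebf2 had -0.82 with the adipocyte and -0.65 with the endothelium sum. The part of cell makeup in the pattern was not tested.

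**Figure D4:**
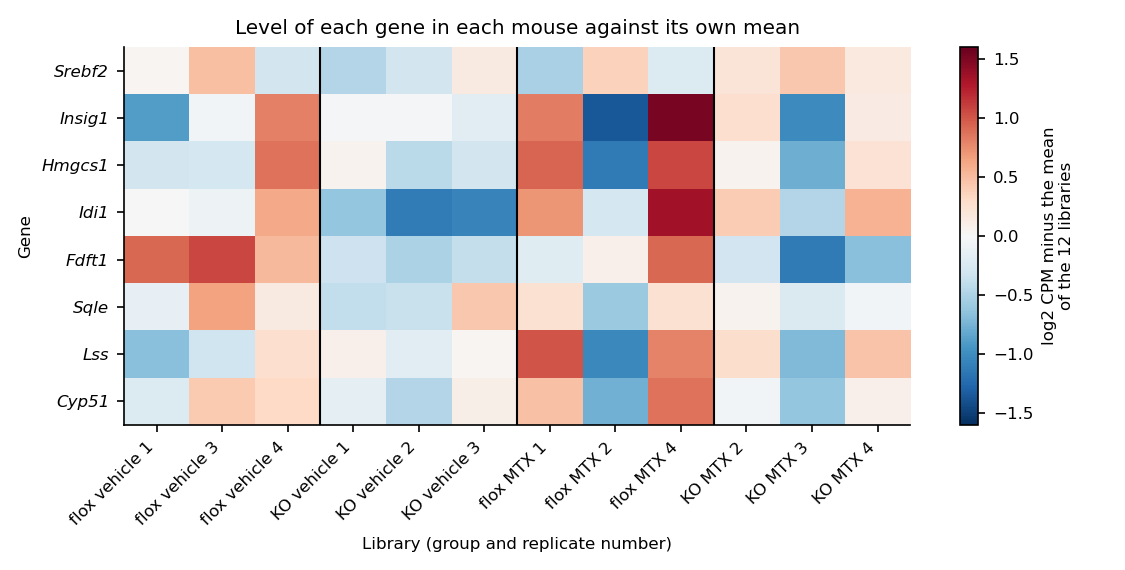
Log2 CPM of each gene in each library minus the mean of that gene over the 12 libraries (color, from -1.6 to 1.6); columns are mice by group and replicate number, and vertical lines part the groups. Flox MTX replicates 1 and 4 are high and replicate 2 low for Insig1, Hmgcs1, Lss and Cyp51, Srebf2 has the opposite sign there, and Fdft1 is below its mean in all 6 KO mice.

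Likeness was then taken over all other genes, as Pearson's r over 12 libraries with the mean standardised log2 CPM of the 8. The 10 most alike were Scd2 (0.94), Copg1 (0.93), Gorasp1 (0.93), Mapkap1 (0.93), Yipf4 (0.92), Polr3g (0.92), Vps53 (0.92), Slc25a51 (0.92), Lsm1 (0.92) and Ipo13 (0.92). Scd2 encodes a stearoyl-CoA desaturase, and Copg1 a subunit of the coat of Golgi vesicles. None of the 10 is on the list of 20, whose closest genes were Hsd17b7 (0.89, rank 33 of 18694) and Sc5d (0.85, rank 123), both enzymes of late sterol synthesis. Lbr (-0.48) and Mbtps2 (-0.53) had the lowest r of the list.

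Lists of neighbouring lipid pathways give the setting. Of 14 genes of fatty acid synthesis, 6 were called lower in KO mice under vehicle and none higher (42.9%, with a median log2 fold change of -1.17). Of all genes, 31.7% were called, 17.8% lower. Among them were Gpam (-2.45, adjusted p = 0.00324), which starts glycerolipid synthesis, and Elovl6 (-1.61, adjusted p = 0.0507 in edgeR), which lengthens fatty acids. The call of Elovl6 was lost without flox vehicle replicate 3 (-1.15, adjusted p = 0.180), KO vehicle replicate 2 (-1.41, 0.147) or KO vehicle replicate 3 (-1.61, 0.129, each second value an adjusted p in edgeR). It was also lost with the replicate number as a block (-1.40, adjusted p = 0.134 in edgeR). Under MTX none of the 14 was called by edgeR, 5 had an unadjusted p below 0.05, against 24.5% of all genes, and DESeq2 called 5, against 16.8%. Of 8 genes of cholesterol efflux and storage, 3 were called between KO and flox mice under vehicle (37.5%, against 31.7% of all genes). Abcg1 (1.19, adjusted p = 0.0219), an exporter of cholesterol to HDL, and Mylip (0.67, adjusted p = 0.0768 in edgeR), a ubiquitin ligase, were higher in KO mice. Ch25h (-5.35, adjusted p = 0.00400), which makes 25-hydroxycholesterol, was lower. Mylip lost its call without any 1 of 4 libraries, flox vehicle replicates 1 and 4 and KO vehicle replicates 1 and 2 (0.49 to 0.64, adjusted p of 0.153 to 0.208 in edgeR). Of these called genes, 3 of the 6 of fatty acid synthesis (Elovl6, Fads1 and Fads2) followed the order of the epididymis markers in flox vehicle libraries. So did 2 of the 3 of efflux and storage (Ch25h and Mylip). Unlike the others in that order, Mylip was higher in KO mice, at 78.8, 87.2 and 52.3 CPM against 40.6, 63.4 and 33.0 in flox vehicle mice. The order was met by 28.1% of all genes tested, called or not, and was not counted over called genes alone. The part of that RNA was not tested. The flox vehicle levels of Ch25h were 21.7 CPM (replicate 1), 43.4 (replicate 3) and 5.54 (replicate 4). Whether these lists differ from the 8 genes was not tested.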

How the data were processed

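The authors deposited whole-number read counts per Ensembl gene without normalization; the submitters' processing notes name Trimmomatic 0.36, STAR 2.5.2b, featureCounts of Subread 1.5.2 and the build GRCm38. The strand setting and the handling of multimapping reads are not given in the sources used here. Per the methods ribosomal RNA was depleted, and per the labels polyA RNA was taken; which applies is not known here. From the 12 libraries, edgeR 4.0.16 in R 4.3.3 was fitted with TMM factors, filterByExpr by group (18702 of 49315 genes), 1 coefficient per group (8 residual degrees of freedom) and quasi-likelihood F-tests, whose p-values were adjusted over all genes tested by the Benjamini-Hochberg method. A call needed a fold change of 1.5 or more with an adjusted p below 0.1. The alternatives were DESeq2 1.42.0, other scalings, filters and limits, a replicate block, fits to the 6 compared libraries, and each library left out. The procedure was tested on simulated counts.

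FPKM used the joined exon length of GENCODE M21. Correlations used log2 CPM with a prior count of 2. A count of 0 allows up to 3 counts, or 0.125 to 0.154 CPM, for counting error only. Mice are the replicates, and libraries of a group were not duplicates (lowest chi-square per degree of freedom 14.1 in 12 pairs). Named are the 8 genes, the pathway genes called in any comparison plus those with the largest change under vehicle up to 6, and the 10 most alike genes. The 8 genes, the lists and the tests were chosen with earlier results of these data known. The deletion itself was not analysed here.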

Additional observations from a re-analysis of the deposited data

Results flagged for a closer look

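Fads2, a fatty acid desaturase on the list of fatty acid synthesis, differed in its response to MTX between the genotypes, which the interaction term of the edgeR model tested directly (log2 3.10, SE 0.61, adjusted p = 0.0831). With the replicate number as a block it was 3.03 (adjusted p = 0.205), so the call was lost. It was also lost where every library had to hold 10 counts or more (adjusted p = 0.206) and without any 1 of 8 libraries: flox vehicle replicate 1, each of the 3 KO vehicle mice, flox MTX replicates 2 and 4 and KO MTX replicates 2 and 4 (adjusted p of 0.105 to 0.293 in edgeR). Its levels in flox vehicle mice (replicates 1, 3 and 4) were 78.8, 183 and 41.0 CPM, and they lay between 6.28 and 15.3 CPM in the other 9 libraries. Its flox vehicle values followed the order of the summed epididymis markers (4535, 12380 and 1467 CPM), and the part of that RNA in the result was not tested. None of the 8 cholesterol synthesis genes was singled out in this way.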

How the results depend on the processing

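With 3 mice a group, standard errors of 0.26 to 0.61 (log2, KO against flox under vehicle) set what could be seen in the 8 genes. Fdft1 kept its call under vehicle in every alternative, each library left out included, except a log2 fold limit of 1.5, under which 0 of the 8 were called. An adjusted p below 0.05 left 1, and leaving out libraries gave 1 to 2. Between KO and flox mice under MTX, where none was called, DESeq2, no filter on low counts and at least 10 counts in every library each called 1 of the 8, and leaving out libraries gave 0 to 4. For MTX in flox mice, library size as the only scaling called 1, and leaving out libraries gave 0 to 1. Of the 20 pathway genes, a log2 fold limit of 1.5 left 2 of the 4 calls under vehicle, and leaving out libraries gave 4 to 5. Between genotypes under MTX, DESeq2 and at least 10 counts in every library each called 2, and leaving out libraries gave 0 to 8. For MTX in flox mice the 3 calls became 0 with only the libraries of the comparison or a log2 fold limit of 1.5, 1 with an adjusted p below 0.05, and 0 to 8 when libraries were left out. For the interaction DESeq2 called 1 (Scap), and leaving out libraries gave 0 to 1. For MTX in KO mice no alternative called any of the 28 genes. Apart from these settings' own construction, the cause was not tested.

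The replicate number as a block left 1 of the 8 under vehicle (Fdft1; Idi1 had an adjusted p of 0.105 in edgeR) and 0 of the 3 pathway calls for MTX in flox mice. Whether the numbers pair the mice is not known here. Residuals of the 12 pairs with the same number correlated from -0.27 to 0.25 (median 0.035, 3 above 0.1), and the other 42 pairs had a median of 0.011. So few pairs with so wide a range cannot settle it. With the block, the log2 fold change between KO and flox mice under vehicle was 0.023 for Hmgcs1 and 0.26 for Insig1, and that of MTX in KO mice was -0.029 for Hmgcs1, 0.0006 for Sqle and -0.0072 for Lss, each of the opposite sign to the fit without it and not called.

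Library size as the only scaling moved the median of all genes to 0.12 between genotypes under MTX, to -0.15 for MTX in flox mice and to 0.13 for the interaction. It turned Sqle between genotypes under MTX to 0.12, Cyp51 for MTX in flox mice to -0.12 and Cyp51 for the interaction to 0.088. Cyp51 for MTX in KO mice became 0.0027 with DESeq2 and 0.0028 with RLE factors. When single libraries were left out, uncalled values of either sign were seen between KO and flox mice under vehicle for Hmgcs1 (-0.61 to 0.078), Lss (-0.021 to 0.47) and Insig1 (-0.51 to 0.34), and under MTX for Sqle (-0.31 to 0.078). The same held for MTX in flox mice for Srebf2 (-0.46 to 0.049), Cyp51 (-0.21 to 0.50) and Insig1 (-0.0049 to 1.16). For MTX in KO mice it held for Hmgcs1 (-0.087 to 0.36), Sqle (-0.16 to 0.31), Lss (-0.11 to 0.39), Cyp51 (-0.14 to 0.18) and Insig1 (-0.26 to 0.28). For the interaction it held for Hmgcs1 (-0.75 to 0.062), Sqle (-0.0079 to 0.54) and Cyp51 (-0.50 to 0.20). Of 1223 alternative values (60 pairs of a gene and a comparison, and 5 medians), 1125 kept their call or lack of one and, apart from 12 medians, their sign, 44 lost a call, 21 gained one and 33 changed sign without a call.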
